A study of Homo sapiens with 6 samples.

Results

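Chromosome 17 was examined along both arms in ChIP-seq libraries for PARP1 and CDK2. Its members were all windows of 10 kb on the chromosome with a mean of at least 10 reads over the 6 libraries. The short arm was taken as windows that start below position 22200000 and the long arm as windows that start from position 25200000 (hg19, counted from 0 as in the deposited table). Of 278395 windows compared genome-wide, 7625 lay in the arms, 2142 of them in the short and 5483 in the long arm. Another 195 arm windows did not reach the minimum, and 58 of these held no read in any library. Just inside the minimum the window means were 10.2 reads, and just outside they were 9.83 and 9.5.

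The cells were T47D-MTVL, a subline of T47D, an established human breast cancer line, that carries an integrated reporter under the mouse mammary tumour virus promoter. All groups shared a period in medium with charcoal-stripped serum and then without serum. Chromatin was taken after 5 min or 30 min of R5020, a synthetic progestin, at 10 nM, or without hormone (0 min), and precipitated with an antibody to PARP1 or to CDK2. Each antibody and time had 1 library, so no value carries an error between replicates and no condition could be tested.

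PARP1 is an abundant nuclear enzyme that binds DNA and nucleosomes and, once active, builds ADP-ribose chains on itself and on neighbouring proteins. CDK2 is a cyclin-dependent kinase best known for driving entry into S phase. The study asks how the kinase takes part in switching on PARP1 once progestin reaches the cells. Chromosome 17 is one of the gene-dense human chromosomes. Gene-rich stretches, such as those of q21 and q25, alternate along it with bands that hold fewer genes, such as p12 and q22. Band q12 carries the receptor kinase gene ERBB2, band q21 carries the HOXB cluster and the type I keratin genes, and band q24 carries the gene desert around SOX9. Windows were not assigned to genes, since no hg19 annotation was used here, and bands were taken as whole blocks of 1 Mb near the textbook boundaries.

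Library totals lay between 40097131 reads for CDK2 at 30 min and 63448449 for PARP1 at 30 min, and the arms of chromosome 17 took between 3.02% and 3.49% of each library. The dispersion between neighbouring windows, which is 1 for independent reads on an even background, was 6.11 to 11.4 in the PARP1 libraries. In CDK2 it was 7.43 at 0 min, 52.2 at 5 min and 24.04 at 30 min. In the CDK2 library of 5 min 75 arm windows (0.984%) were empty, against 12 in CDK2 at 30 min, 1 in PARP1 at 0 min and 0 in the other 3 libraries. Intervals below are 95% exact (Clopper-Pearson) intervals on counts divided by the mean dispersion of the libraries compared. Where the short-arm ratio is divided by the long-arm ratio, the interval is a normal approximation on the log scale, widened by the same dispersion. All intervals cover counting error and local unevenness within these libraries only.

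The arms differed in read level in every library. The level is the mean count per window divided by the median compared window of the same library. In PARP1 the short-arm level was 0.749, 0.821 and 0.789 at 0, 5 and 30 min. The long arm stood at 1.44, 1.55 and 1.52 in the same libraries. In CDK2 the short arm had 0.755, 0.747 and 0.869 at 0, 5 and 30 min, and the long arm had 1.42, 1.43 and 1.62. The short arm thus held 0.520 to 0.535 of the long-arm level in all 6 libraries. With the median window in place of the mean, the share was 0.480 to 0.493. For scale, chromosome 17 as a whole had a level of 1.24 in PARP1 at 0 min, against 1.02 for chromosome 16 and 0.990 for chromosome 20. T47D is an aneuploid line, and no input library was used here, so chromosome copies, mappability and occupancy cannot be told apart in a level.

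In compared blocks of 1 Mb the same difference between the arms was seen. A block was compared where it had a mean of at least 5000 reads, which 22 blocks of the short and 56 of the long arm reached. The 2 partial blocks at 22000001 and 81000001 did not. In PARP1 at 0 min the short-arm blocks ran from 0.588 to 1.73 with a median of 0.701, and the long-arm blocks from 1.11 to 1.77 with a median of 1.42. Every one of the 56 long-arm blocks stood above 1 in each of the 6 libraries. Among the 22 compared blocks of the short arm 1, 19000001 to 20000000, stood above 1 in all of them.

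**Figure D1:**
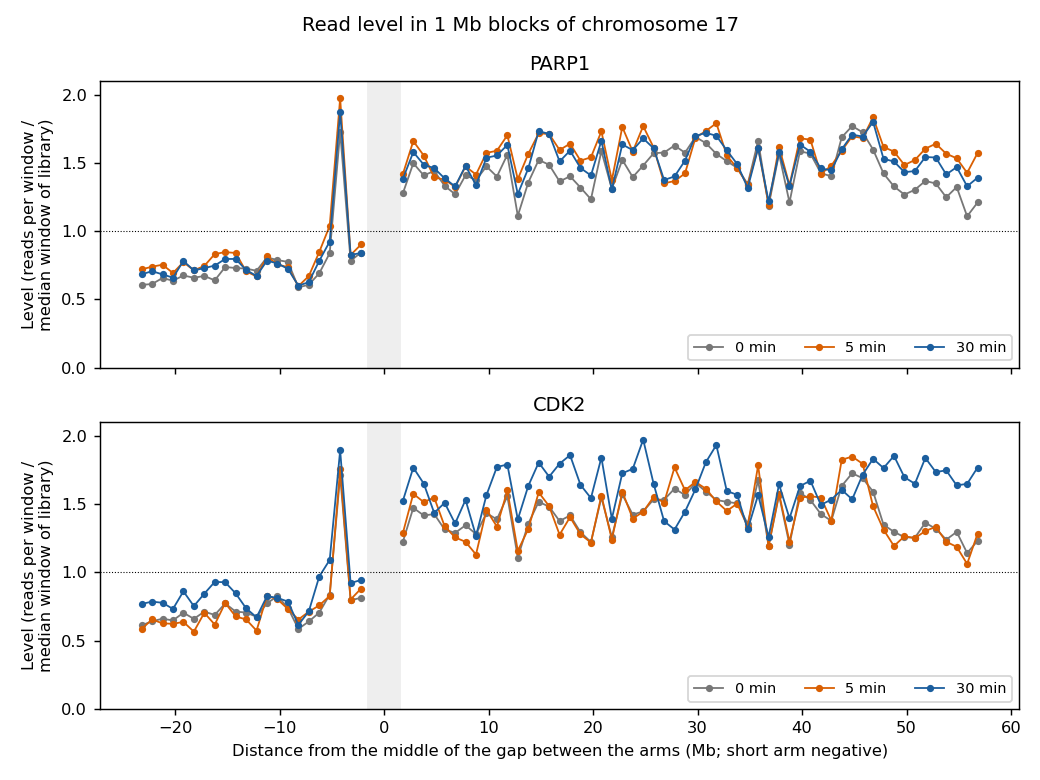
Read level in the 78 compared blocks of 1 Mb, as mean reads per window over the median window of the library, against distance from the middle of the gap between the arms in Mb. The upper panel shows PARP1 and the lower CDK2, with 1 point per block and library, and the grey bar marks the gap. Long-arm blocks lie above 1 at all 3 times, and 1 block of the short arm stands at the long-arm level.

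That block belongs to a raised segment in band p11.2. In bins of 100 kb, 12 of 216 short-arm bins with at least 5 windows stood at or above 1.25 in all 6 libraries, against 329 of 551 on the long arm. Of the 12, 11 were consecutive, from 19100001 to 20200000, and the other was 18800001 to 18900000. The limit of 1.25 was chosen after the levels had been seen. Over the 106 windows of the segment the PARP1 level was 1.77, 1.98 and 1.90 at 0, 5 and 30 min, and the CDK2 level was 1.75, 1.79 and 1.95. On the side towards the gap, the bin 20200001 to 20300000 held 0.524 to 0.618 and the next bin 0.0659 to 0.168. On the other side no window of the bin next to the segment reached the minimum, and 4 windows of the bin before it did, with levels of 0.926 to 1.66. Past the raised bin at 18800001, the level was 0.863 to 1.12 in the bin at 18700001 and 0.277 to 0.395 in the bin at 18600001. Without the segment the short arm had a level of 0.696 in PARP1 and 0.703 in CDK2 at 0 min.

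**Figure D2:**
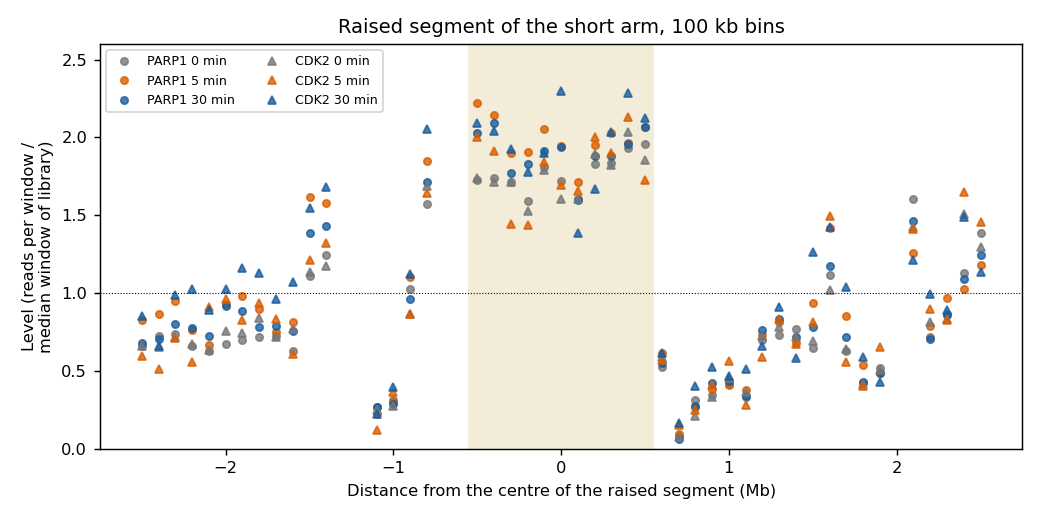
Read level in bins of 100 kb on the short arm around the raised segment (shaded), against distance from its centre in Mb, with circles for PARP1, triangles for CDK2 and colours for the 3 times. The bins of the segment were chosen for standing at or above 1.25 in all 6 libraries. The 2 bins just beyond it towards the gap lie between 0.0659 and 0.618.

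PARP1 at 5 min was set against 0 min to ask where along the chromosome the enzyme was found more or less often early after hormone. Ratios are reads scaled by the library totals. The short arm held 5775 RPM (reads per 1000000 reads of the library) at 5 min against 5237 RPM at 0 min, a ratio of 1.103 (1.09 to 1.12). The long arm held 27979 against 25714 RPM, a ratio of 1.09 (1.08 to 1.095). The short-arm ratio divided by the long-arm ratio, which no scaling of libraries can move, was 1.01 (0.997 to 1.03), an interval that includes 1. Chromosomes 16 and 20 had 1.08 (1.07 to 1.09) and 1.07 (1.07 to 1.08).

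The PARP1 ratio was uneven along both arms. Of 78 blocks, 40 had a ratio of at least 1.1 at 5 min, 12 of the 22 on the short arm and 28 of the 56 on the long arm, where 19.2% of all 2825 blocks of the genome did. At most 0.909, the inverse of that fold, was reached by 3 blocks, against 20% genome-wide. The median block of the chromosome had 1.11, against 0.998 for all blocks. With 1 library a time these counts describe the libraries and are not a test.

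Band q25, the gene-rich end of the long arm, stood highest among the bands. It held 5118 RPM at 5 min against 4230 at 0 min, a ratio of 1.21 (1.19 to 1.23), and all 10 of its compared blocks were at or above 1.1. Band q21 had 1.15 (1.13 to 1.16) with 9 of 12 blocks past the fold, band p13 at the end of the short arm 1.14 (1.12 to 1.17) with 8 of 11, and band p11.2 had 1.13 (1.103 to 1.16) with 4 of 6. Band q12 had 1.12 (1.096 to 1.14) and band q11.2 had 1.06 (1.04 to 1.08). The partial band q11.1 beside the gap had 1.12 (1.05 to 1.19) in 74 windows.

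Bands p12, q22, q23 and q24 lay near 1. Band q22 held 4059 RPM at 5 min against 4131 at 0 min, a ratio of 0.983 (0.966 to 1.00), or 1.02 when scaled on low-count windows, and band p12 had 0.979 (0.948 to 1.01). Bands q23 and q24 stood at 1.02 (1.00 to 1.05) and 1.03 (1.01 to 1.05). Relative to the ratio of the whole chromosome, q25 was at 1.11, q22 at 0.901 and p12 at 0.898, values that do not depend on how libraries are scaled.

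**Figure D3:**
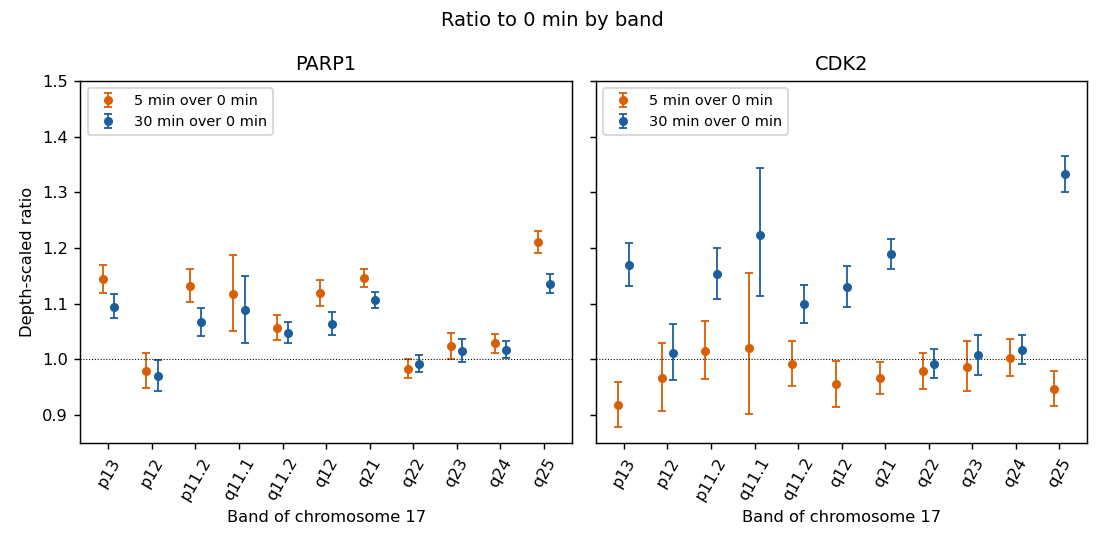
Depth-scaled ratio to 0 min in the 11 bands of chromosome 17 for PARP1 (left) and CDK2 (right) at 5 and 30 min, with bars for the widened 95% interval. Bands p12, q22, q23 and q24 lie near 1 for PARP1 at both times and for CDK2 at 30 min, and q25 lies highest in those 3 contrasts.

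Single blocks were named by rank, the 5 highest and 5 lowest of each comparison with 0 min. The block 7000001 to 8000000 in p13 held 208.8, 273 and 245 RPM of PARP1 at 0, 5 and 30 min, and its ratio at 5 min was 1.31 (1.22 to 1.41). In 82 of its 100 windows the scaled count was above that of 0 min, so the higher count was spread over the block. The last full block, 80000001 to 81000000 in q25, held 395, 516 and 456 RPM at the 3 times, with a ratio of 1.31 (1.24 to 1.38) at 5 min and 92 of 100 windows above 0 min. The blocks 79000001 to 80000000 and 77000001 to 78000000 in q25 had 1.29 (1.22 to 1.37) and 1.26 (1.20 to 1.33). The fifth of the 5 highest, 43000001 to 44000000 in q21, had 1.26 (1.19 to 1.32).

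At the low end 3 adjacent blocks of q22 formed a trough. The block 51000001 to 52000000 held 531, 449 and 459 RPM of PARP1 at 0, 5 and 30 min. Its ratio at 5 min was 0.845 (0.804 to 0.888), and 19 of its 100 windows stood above 0 min. The block before it had 0.862 (0.820 to 0.907) and the block after it 0.909 (0.865 to 0.955). Next lowest were 67000001 to 68000000 in q24, with 0.947 (0.904 to 0.993), and 11000001 to 12000000 in p12, with 0.948 (0.881 to 1.02). Other blocks of q22 lay on the opposite side of 1, up to 1.15, so the band was not uniform.

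At 30 min the PARP1 ratios of both arms to 0 min were nearer 1 than at 5 min. The short arm held 5539 RPM against 5237 at 0 min, a ratio of 1.06 (1.04 to 1.07), and the long arm held 27250 against 25714, likewise 1.06 (1.05 to 1.07). The ratio of the arms was 0.998 (0.983 to 1.01). At least 1.1 was reached by 27 blocks, 6 on the short and 21 on the long arm, against 10.6% of blocks genome-wide, and at most 0.909 by 2 blocks, against 11.5%. Band q25 had 1.14 (1.12 to 1.15), band q21 1.11 (1.09 to 1.12) and band p13 1.09 (1.07 to 1.12). Band q22 had 0.992 (0.977 to 1.01), and band p12 had 0.970 (0.943 to 0.998), further from 1 than its 0.979 at 5 min. The 5 highest blocks were 79000001 to 80000000 with 1.20 (1.14 to 1.27), then 7000001 to 8000000, 4000001 to 5000000, 1000001 to 2000000 and 39000001 to 40000000, with 1.16 to 1.17. The lowest was again 51000001 to 52000000, with 0.865 (0.827 to 0.904), followed by 50000001 to 51000000 with 0.876 (0.838 to 0.917), then 14000001 to 15000000 in p12 with 0.939 (0.881 to 1.00), 11000001 to 12000000 with 0.951 and 67000001 to 68000000 with 0.952. The comparisons at 5 and 30 min share the 0 min library.

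Directly between 30 and 5 min, PARP1 was lower on both arms, at 0.959 (0.945 to 0.974) on the short and 0.974 (0.967 to 0.981) on the long arm. This contrast shares the single 5 min library with that of 5 against 0 min, on the opposite side of the ratio, so the 2 sets of values are not independent. Band q25 had 4803 RPM at 30 min against 5118 at 5 min, a ratio of 0.938 (0.924 to 0.954). Bands p11.2, q12, p13 and q21 had ratios of 0.942, 0.951, 0.957 and 0.966, all with intervals below 1. In the other 6 bands, p12, q11.1, q11.2, q22, q23 and q24, the intervals included 1. No block of the chromosome reached 1.1, against 0.673% genome-wide, and 5 were at most 0.909, against 2.12%.

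**Figure D4:**
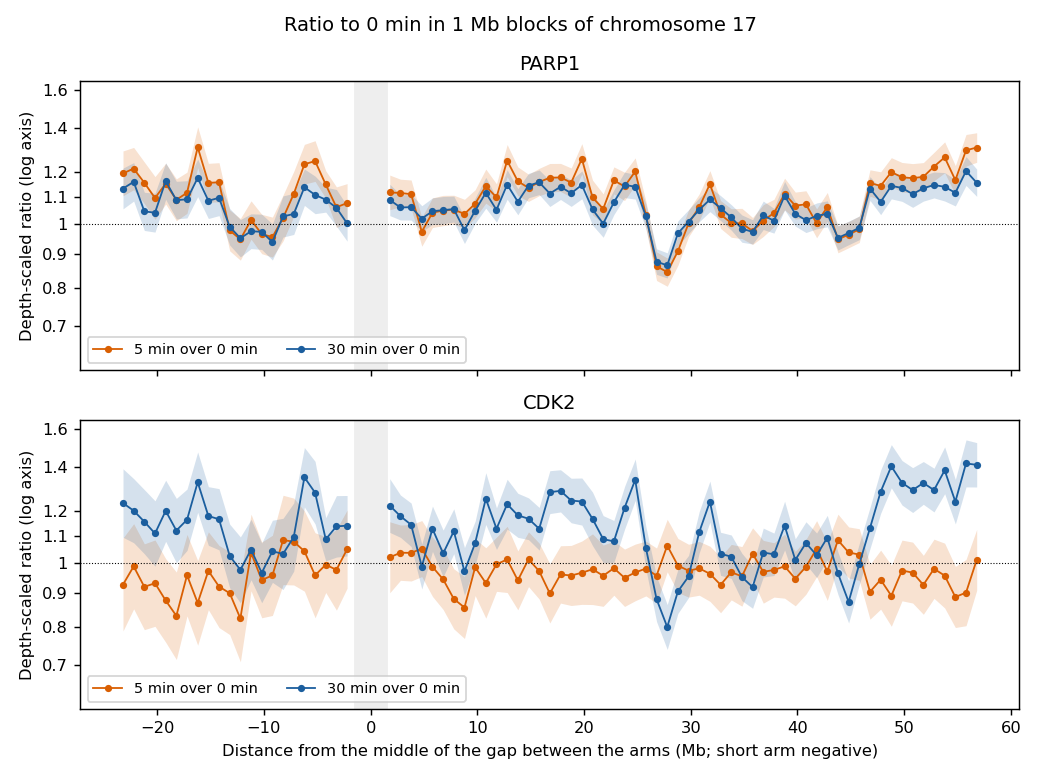
Depth-scaled ratio to 0 min in the 78 compared blocks of 1 Mb, on a log axis, against distance from the middle of the gap in Mb, for PARP1 (top) and CDK2 (bottom) at 5 and 30 min, with shaded widened 95% intervals. PARP1 at 5 min and CDK2 at 30 min share the trough at 50000001 to 53000000, where CDK2 at 30 min reaches 0.799. PARP1 at 30 min shares it in the blocks that start at 50000001 and 51000001. In the block that starts at 52000001 the PARP1 ratio at 30 min is 0.968, with an interval of 0.926 to 1.01. PARP1 at both times and CDK2 at 30 min share the raised end of the long arm, while CDK2 at 5 min stays between 0.823 and 1.08.

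For the kinase the same contrasts were made. With CDK2 at 30 min the short arm held 6033 RPM against 5340 at 0 min, a ratio of 1.13 (1.105 to 1.16), and the long arm held 28878 against 25726, a ratio of 1.12 (1.11 to 1.13). The short-arm over the long-arm ratio was 1.01 (0.982 to 1.03). As a whole chromosome 17 had 1.12 (1.11 to 1.13), beside 1.13 (1.12 to 1.14) on chromosome 16 and 1.12 (1.11 to 1.13) on chromosome 20. At least 1.1 was reached by 46 of 78 blocks, 14 on the short and 32 on the long arm, against 24.4% of blocks genome-wide. At most 0.909 was reached by 4, against 28.2%. The median block had 1.13, against 0.988 over the genome.

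Band q25 again stood highest. It held 5634 RPM at 30 min against 4225 at 0 min, a ratio of 1.33 (1.30 to 1.37), and all 10 blocks were past the fold, from 1.24 to 1.42. Band q21 had 1.19 (1.16 to 1.22), p13 had 1.17 (1.13 to 1.21) with 10 of 11 blocks past the fold, and p11.2 had 1.15 (1.11 to 1.20). Band q12 had 1.13 (1.09 to 1.17). Band q22 had 0.992 (0.966 to 1.02) and p12 had 1.01 (0.963 to 1.06), and bands q23 and q24 had 1.01 (0.972 to 1.04) and 1.02 (0.991 to 1.04). Relative to the whole chromosome q25 was at 1.19 and q22 at 0.883.

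Among blocks, 79000001 to 80000000 had the highest CDK2 ratio at 30 min. It held 362, 326 and 513 RPM at 0, 5 and 30 min, and the ratio of 30 to 0 min was 1.42 (1.31 to 1.54). Then came 80000001 to 81000000 with 1.41 (1.31 to 1.52), 72000001 to 73000000 with 1.40 (1.30 to 1.51) and 77000001 to 78000000 with 1.38 (1.27 to 1.50), all in q25. The fifth, 17000001 to 18000000 in p11.2, had 1.35 (1.22 to 1.50). At the low end 51000001 to 52000000 held 533, 566 and 426 RPM, a ratio at 30 min of 0.799 (0.739 to 0.864). The block 68000001 to 69000000 in q24 followed with 0.873 (0.810 to 0.940), then 50000001 to 51000000 with 0.881 (0.815 to 0.953), 52000001 to 53000000 with 0.905 (0.838 to 0.978) and 59000001 to 60000000 in q23 with 0.919 (0.853 to 0.990).

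At 5 min CDK2 stood slightly below 0 min under scaling by totals. The short arm held 5124 RPM against 5340 at 0 min, a ratio of 0.960 (0.932 to 0.988), and the long arm held 25072 against 25726, a ratio of 0.975 (0.962 to 0.988). With TMM factors these ratios were 1.00 and 1.02, and with median-of-ratios size factors 1.01 and 1.02, so their side of 1 rests on the scaling. No block reached a ratio of 1.1, against 5.98% genome-wide, and 12 were at most 0.909, against 8.81%. With TMM factors 4 blocks lay past each fold, against 19.4% of blocks at least 1.1 and 2.44% at most 0.909 genome-wide. Scaled on low-count windows, 75 were at least 1.1, against 97.9%, and 0 at most 0.909, as genome-wide. Relative to the whole chromosome, which no scaling moves, p13 stood at 0.944 and q25 at 0.974. The partial band q11.1 stood at 1.05, p11.2 at 1.04 and q24 at 1.03. The lowest block, 11000001 to 12000000 in p12, had 0.823 (0.707 to 0.959), and 5000001 to 6000000 in p13 had 0.831 (0.713 to 0.969), values that became 1.05 and 1.06 when scaled on low-count windows. The highest, 15000001 to 16000000, had 1.08 with an interval of 0.927 to 1.27 that includes 1. This library had the highest dispersion of the 6, and its part in these ratios was not tested.

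Between 30 and 5 min the CDK2 ratio was 1.18 (1.14 to 1.22) on the short and 1.15 (1.13 to 1.17) on the long arm. At least 1.1 was reached by 51 blocks, against 30.2% genome-wide, and at most 0.909 by 4, against 30.7%. Band q25 had 1.41 (1.36 to 1.46) and p13 1.27 (1.21 to 1.34), while q22 had 1.01 (0.975 to 1.05). Scaled on low-count windows, the long-arm ratio was 0.986. Over both arms 22 blocks were then at least 1.1, against 8.88% genome-wide, and 17 at most 0.909, against 63.2%.

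The profiles of both antibodies were laid over each other using contrasts that share no library. Across the 78 blocks, which are neighbours on 1 chromosome and not replicates, the PARP1 ratio at 5 min and the CDK2 ratio at 30 min had a Pearson correlation of 0.918 and a Spearman correlation of 0.922. Over all 2825 blocks of the genome the values were 0.907 and 0.908. Within the short arm Pearson's value was 0.930 and within the long arm 0.928. Of the blocks past 1.1, 37 were shared, which is 92.5% of those of PARP1 at 5 min and 80.4% of those of CDK2 at 30 min. Genome-wide 478 blocks were shared, 88.4% and 69.4% of the same lists. At 30 min for both, the Pearson correlation was 0.879 and 27 blocks were shared, all of those of PARP1 and 58.7% of those of CDK2, against a correlation of 0.866 and 284 shared blocks genome-wide, 94.7% and 41.2%. With both at 5 min the Pearson correlation was -0.228, against -0.376 genome-wide. No block of the chromosome was past 1.1 for CDK2 at 5 min, so none could be shared. Genome-wide 7 blocks were shared, 1.29% of those of PARP1 and 4.14% of those of CDK2.

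**Figure D5:**
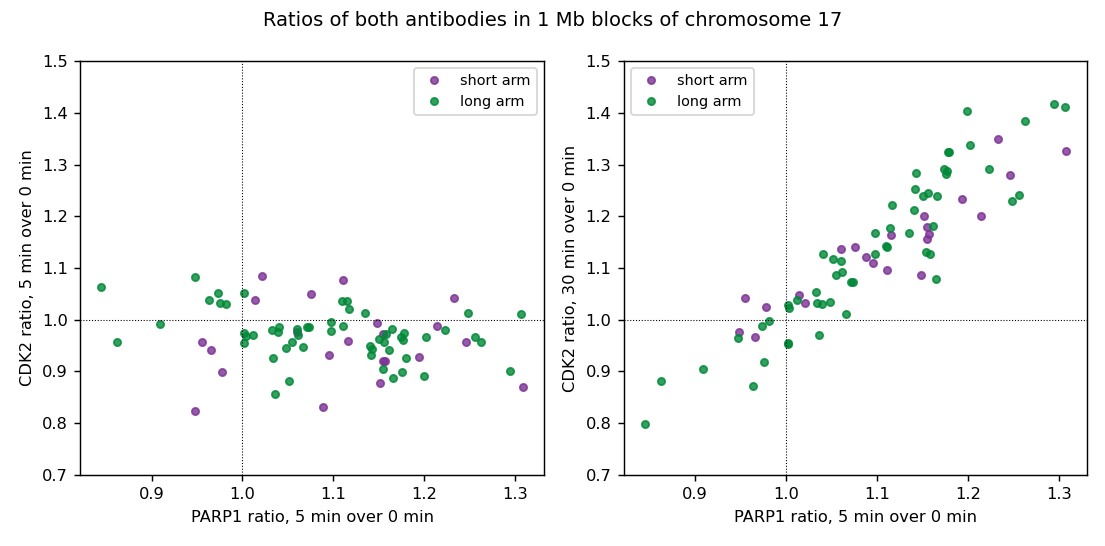
CDK2 ratio to 0 min at 5 min (left) and at 30 min (right) against the PARP1 ratio of 5 to 0 min in the 78 blocks of 1 Mb, coloured by arm. The points lie along a rising line on the right, with a Pearson correlation of 0.918, and show no such line on the left, with -0.228. Points of both arms lie along it.

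The ratio also varied with the level before hormone on the long arm. There the CDK2 level at 0 min and the PARP1 ratio at 5 min, which share no library, had a Pearson correlation of -0.591 over 56 blocks. The PARP1 level at 0 min and the CDK2 ratio at 30 min had -0.621. With the CDK2 ratio at 5 min the PARP1 level at 0 min had 0.342, the opposite sign. Band q25, with a level of 1.29 in PARP1 and 1.28 in CDK2 at 0 min, stood below q22, with 1.58 and 1.56. At 30 min q25 had 1.73 and q22 1.58 in CDK2, but 1.46 and 1.56 in PARP1. At 5 min q25 and q22 had 1.56 and 1.55 in PARP1, and 1.25 and 1.58 in CDK2. On the short arm the same pairs of measures had, in that order, correlations of 0.0450, -0.158 and 0.135 over 22 blocks. The raised segment of p11.2 had ratios of 1.13 (1.08 to 1.18) for PARP1 at 5 min and 1.09 (1.02 to 1.17) for CDK2 at 30 min, beside the 1.103 and 1.13 of its arm.

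At the ends of the chromosome the first block, 1 to 1000000, had ratios of 1.19 (1.104 to 1.29) for PARP1 at 5 min and 1.23 (1.09 to 1.39) for CDK2 at 30 min. Beside the gap the block 25000001 to 26000000 had 1.12 (1.05 to 1.19) and 1.22 (1.11 to 1.34). On the short-arm side of the gap the same ratios were 0.883 and 0.919 in the partial block at 22000001. That block held 20 windows and was under the block minimum.

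Single windows of 10 kb were then searched for local differences past a ratio of 2. For PARP1 at 5 min 105 windows (1.38%) were at least 2 and 49 at most 0.5, against 0.930% and 1.79% genome-wide. At 30 min 46 and 24 windows were, against 0.452% and 0.635%. For CDK2 at 5 min the counts were 305 and 1159, against 6.22% and 16.2%, and at 30 min 562 and 502, against 5.50% and 11.6%. For 30 against 5 min, PARP1 had 48 windows at least 2 and 52 at most 0.5, against 1.36% and 0.837%. CDK2 had 1625 and 665 there, against 18.5% and 15.2%. The shallower short arm had a greater share of its own windows past each limit than the long arm in every contrast. For PARP1 at 5 min 3.17% of its windows were at least 2, against 0.675% of long-arm windows.

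Named windows were the 3 higher and 3 lower of each comparison with 0 min whose nearer interval bounds lay farthest from 1. In band q12 the window 33470001 to 33480000 held 627, 947 and 1396 PARP1 reads at 0, 5 and 30 min, and 466, 460 and 611 CDK2 reads. The ratio of PARP1 at 30 min was 1.96 (1.51 to 2.56). This window is deep in all 6 libraries, since the median PARP1 window at 0 min held 182 reads. The window 10020001 to 10030000 in p13 held 85, 185 and 273 PARP1 reads and 97, 101 and 199 CDK2 reads, with a PARP1 ratio at 30 min of 2.82 (1.43 to 6.03). At 5 min 7670001 to 7680000, inside the highest block of PARP1, held 283 PARP1 reads against 98 at 0 min, a ratio of 2.75 (1.36 to 6.02). In p11.2, 18140001 to 18150000 held 286 against 100, a ratio of 2.73 (1.35 to 5.91), and 17740001 to 17750000 held 281 against 67, a ratio of 3.999 (1.78 to 10.3).

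Of all PARP1 windows at most 0.5, 39 of 49 at 5 min and 19 of 24 at 30 min lay on the short arm. The 6 lower windows named lay on the long arm, where windows are deeper and intervals narrower. In q22, within the trough, 51310001 to 51320000 held 310, 153 and 270 PARP1 reads at 0, 5 and 30 min, and the ratio at 5 min was 0.471 (0.249 to 0.858). The windows 29580001 to 29590000 and 68900001 to 68910000 had 0.465 (0.249 to 0.839) and 0.511 (0.297 to 0.860). At 30 min 59020001 to 59030000 in q23 held 442, 305 and 218 reads over time, and 67180001 to 67190000 in q24 held 423, 378 and 252.

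Among CDK2 windows of 30 min, 37860001 to 37870000 in q12 came first on the higher side. It held 147, 145 and 446 CDK2 reads and 225, 322 and 353 PARP1 reads at 0, 5 and 30 min, and the CDK2 ratio was 3.41 (1.58 to 8.09). In q21 the window 48430001 to 48440000 held 195, 268 and 525 CDK2 reads, a ratio at 30 min of 3.03 (1.54 to 6.36), and 258, 355 and 354 PARP1 reads. The foremost lower one, 46380001 to 46390000 in q21, held 388, 514 and 54 CDK2 reads, a ratio at 30 min of 0.157 (0.0346 to 0.484), while PARP1 had 412, 368 and 459 reads. Windows named for CDK2 at 5 min included deep and empty ones in that library. The window 12680001 to 12690000 in p12 held 62, 557 and 126 CDK2 reads at the 3 times. The window 31370001 to 31380000 in q11.2 held 210, 0 and 240, and the widened interval of its ratio at 5 min reached up to 0.537. PARP1 had 269, 323 and 388 reads there.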

How the data were processed

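Read counts per 10 kb window were deposited by the authors as whole numbers, 1 column per library, without normalization. The submitters' processing notes name Bowtie 1.0.0 and the build hg19. How duplicates and multiple matches were handled, which could change deep windows, was not given in the sources used here.

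Windows with a mean of at least 10 reads were kept, summed over arms, bands and 1 Mb blocks, and scaled by library totals. The named blocks were the 5 highest and 5 lowest per comparison with 0 min. The named windows were 3 higher and 3 lower, at most 1 per 100 kb, by widened interval bound. Intervals were widened by the dispersion, a robust variance of differences between neighbouring windows over the Poisson expectation, which also takes in real differences between neighbours. Floors cover counting error only. On simulated Poisson reads the dispersion and the unwidened interval of the short-arm ratio were tried. The widened intervals were not tested. No test between conditions was possible with 1 library per group. Scalings from edgeR 4.0.16 and DESeq2 1.42.0, other minimums, medians and leaving out deep windows were tried, as was scaling on the 25% of compared windows with the lowest means (low-count windows). Python 3.11.15, numpy 2.4.6, scipy 1.17.1, pandas 2.3.3, matplotlib 3.10.9 and R 4.3.3 were used. The members and bands were chosen with earlier results of these data known.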

Additional observations from a re-analysis of the deposited data

Results flagged for a closer look

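At 5 min the antibodies lay on opposite sides of 1 on both arms under scaling by totals. On the short arm the ratio to 0 min was 1.103 for PARP1 and 0.960 for CDK2, and on the long arm it was 1.09 for PARP1 and 0.975 for CDK2. This difference was not tested, since each antibody and time had 1 library.

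Between the arms, from 22200001 to 25200000, 7 windows reached a mean of 10 reads and were in no comparison. They held 3048, 3388 and 3913 PARP1 reads at 0, 5 and 30 min. The minimum they passed already puts their mean above the 3 reads that a count of 0 allows. Their level was 2.39 in PARP1 and 2.42 in CDK2 at 0 min.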

How the results depend on the processing

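No paired analysis was possible because each antibody and time had 1 library. The side of 1 of the CDK2 arm ratios at 5 min depended on the scaling. Short and long arm had 1.00 and 1.02 with TMM factors, 1.01 and 1.02 with median-of-ratios size factors, and 1.22 and 1.24 with scaling on low-count windows, which moves CDK2 at 5 min by 0.35 and at 30 min by 0.12 on the log2 scale. Blocks at least 1.1 and at most 0.909 then numbered 4 and 4, 6 and 3, and 75 and 0. Genome-wide the shares of blocks were 19.4% and 2.44%, 20.7% and 2.30%, and 97.9% and 0%. Windows past 2-fold numbered 898 and 725 in the last, a count without a genome-wide share beside it. Some bands had an interval below 1 under scaling by totals and a ratio above 1 under another scaling. They were q21 with 1.01 under the first, and q12 and q21 with 1.00 and 1.01 under the second. Under the third they were p13, q12, q21 and q25, with 1.17, 1.21, 1.23 and 1.20. Of the 8 blocks with an interval below 1 under totals, only those named by rank were followed. These, at 5000001, 11000001 and 32000001, had 1.06, 1.05 and 1.09 under the third. CDK2 at 30 min had arm ratios of 1.17 and 1.16, 1.18 and 1.17, and 1.23 and 1.22 under these 3 scalings. Lower blocks numbered 2, 2 and 1, against 19.1%, 18.1% and 9.45% of blocks genome-wide, and the third put the block at 59000001 at 1.00. Between 30 and 5 min the third gave CDK2 arm ratios of 1.01 and 0.986 with 22 higher and 17 lower blocks, against 8.88% and 63.2% genome-wide.

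For PARP1 at 5 min the long arm had 1.099 and 1.098 under the first and second scaling, and the arms had 1.14 and 1.12 under the third, with band q22 at 1.02. At 30 min the third gave 1.08 and 1.09, and 0.967 on the long arm between 30 and 5 min. With the median of window ratios the CDK2 arms had 0.878 and 0.937 at 5 min (short over long 0.937), 1.08 and 1.102 at 30 min (0.979), and 1.22 and 1.18 between them, with 28 lower blocks at 5 min, and PARP1 had 3 lower blocks between 30 and 5 min. A minimum of 20 left 15 lower PARP1 windows at 30 min. Without a minimum, PARP1 had 94 lower windows at 5 min, 85 higher and 58 lower at 30 min, and 98 and 90 between them. The counts under the median and the other minimums stand without genome-wide shares, so they show only how the chromosome 17 calls moved. The causes of these shifts were not tested. Dropping the deepest 1% of windows, or the 2 deepest windows per block, an alternative chosen after seeing the data, moved no count past 1.5 times. Single windows are limited by read number on the short arm, whose level is lower, and by unevenness in CDK2 at 5 min.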
